A study of Mus musculus with 26 samples.

Results

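The 34 genes described here carry glucose into cells, break it down to lactate and export the lactate, or rise when oxygen is short. They were chosen by name as members of glycolysis and of the hypoxia response and looked up by symbol among the 55416 gene identifiers counted in the series, where each was found. The rule uses no measured value, but the members and the further gene lists below were chosen with earlier results of these data known. Of the 34, 22 act in glucose uptake, glycolysis and lactate transport (Slc2a1, Slc2a3, Hk1, Hk2, Gpi1, Pfkl, Pfkm, Pfkp, Pfkfb3, Pfkfb4, Aldoa, Aldoc, Tpi1, Gapdh, Pgk1, Pgam1, Eno1, Eno2, Pkm, Ldha, Slc16a1 and Slc16a3). The other 12 are genes of the hypoxia response (Pdk1, Bnip3, Car9, Egln1, Egln3, Ankrd37, Ndrg1, P4ha1, P4ha2, Hif1a, Kdm3a and Mif).

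RNA came from the lungs of C57BL/6 mice that carried lung metastases after intravenous injection of B16F10 cells, a melanoma cell line of the same mouse strain. Poly(A) RNA of whole lung (5 untreated and 5 propranolol libraries), of lung monocytes sorted by flow cytometry (4 and 4) and of lung CD4 T cells isolated with magnetic beads (4 and 4) was sequenced, 26 libraries in all. The mice had received propranolol, a blocker of beta-adrenergic receptors, or no treatment, and every group carried the metastases. Dose, duration, age and sex are not given in the sources used here. Whether each library stands for its own mouse is not stated in the labels, so a p-value measures the spread between these libraries, which may in part be technical.

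Cells split glucose to pyruvate in the cytosol, and dividing, activated and tumour cells convert much of the pyruvate to lactate even where oxygen is present. When oxygen falls, the prolyl hydroxylases no longer mark the alpha subunit of hypoxia-inducible factor (HIF) for destruction, and HIF raises transcription of nearly every step of glycolysis, of lactate export, of acid-base control and of the kinases that keep pyruvate out of mitochondria. In lung metastases the melanoma cells, the infiltrating leukocytes and the resident lung cells all carry out glycolysis, with different isozymes in different cell types.

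HIF binds DNA through a short core, and ACGTG is the core form searched here on both strands. In the 250 bases before the transcription start, ACGTG was present in 19 of the 32 members with a promoter in the RefSeq table (59.4%), beside 18.5% of the 27025 genes of that table. The member promoters were also richer in G and C, 60.9% of bases beside 53.2% over all promoters, so the letters alone would occur at another rate in them. A second form of the core, GCGTG, was present in 20 of the 32 (62.5%), beside 30.9% of all genes. A gene with more than 1 window was counted if any of them held the core. The promoters printed here are those of the 4 members with the smallest p in whole lung among those that changed there and hold ACGTG before the start. Where such a gene had more than 1 window, as Ldha (2) and Aldoa (3) did, the window with the most matches is printed. Each run is 250 bases, 5′ to 3′ on the strand of the gene, from RefSeq on build GRCm38.p6, and capitals mark ACGTG or its reverse complement CACGT. The windows are Car9 at chr4:43506776-43507025 on the plus strand, Slc16a3 at chr11:120948817-120949066 on the plus strand, Ldha at chr7:46845554-46845803 on the plus strand and Aldoa at chr7:126799179-126799428 on the minus strand.
Car9: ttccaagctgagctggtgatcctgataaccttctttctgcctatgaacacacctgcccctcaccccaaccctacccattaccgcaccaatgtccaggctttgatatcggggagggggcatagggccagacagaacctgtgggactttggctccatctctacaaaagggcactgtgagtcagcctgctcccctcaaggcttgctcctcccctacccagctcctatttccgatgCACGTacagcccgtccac
Slc16a3: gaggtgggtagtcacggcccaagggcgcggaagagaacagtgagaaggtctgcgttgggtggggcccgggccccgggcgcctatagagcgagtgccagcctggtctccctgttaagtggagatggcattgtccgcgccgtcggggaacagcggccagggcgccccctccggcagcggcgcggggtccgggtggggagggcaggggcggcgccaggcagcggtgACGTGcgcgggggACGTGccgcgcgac
Ldha: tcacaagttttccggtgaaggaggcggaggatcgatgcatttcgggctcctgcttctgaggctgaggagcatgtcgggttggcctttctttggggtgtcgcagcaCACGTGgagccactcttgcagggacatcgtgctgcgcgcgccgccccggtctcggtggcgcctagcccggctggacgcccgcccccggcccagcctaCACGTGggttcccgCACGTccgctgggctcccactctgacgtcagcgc
Aldoa: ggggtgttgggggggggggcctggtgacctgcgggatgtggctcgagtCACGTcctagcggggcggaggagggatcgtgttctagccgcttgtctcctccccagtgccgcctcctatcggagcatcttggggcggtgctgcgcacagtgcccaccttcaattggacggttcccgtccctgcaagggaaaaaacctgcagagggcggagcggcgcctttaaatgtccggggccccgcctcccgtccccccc
In Car9 the only match began 18 bases before the start, and in Slc16a3 there were 2 matches on the gene's own strand, 27 and 14 bases before it. Ldha held 5 matches counted on both strands, of which 4 were the 2 strands of a pair of CACGTG palindromes. The match in the printed Aldoa window lay 202 bases before the start. A match is a description of letters, not a binding site.

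Total counts ran from 29650148 to 48306925 in the lung and monocyte libraries and from 17625672 to 42484125 in the CD4 T cell libraries. Values below are scaled CPM (CPM, each count as a share of its library total on a fixed scale, after trimmed-mean scaling within each kind of material) unless named otherwise, and a gene counts as changed at an adjusted p under 0.05 in edgeR's quasi-likelihood test over all tested genes. The libraries labelled monocytes held RNA of other lung cells. Their summed plain CPM over 8 endothelial markers was 5708 to 5833 untreated, above the 1338 to 2248 of untreated whole lung, and over 8 alveolar type 2 markers it was 4419 to 4722. Over 12 melanocyte markers it was 3859 to 4582 untreated and 4838 to 6997 treated. Over 8 monocyte markers it was 2051 to 2282 untreated, beside 253 to 377 in untreated whole lung, and all 8 were called higher than there. Of these, Csf1r, the receptor that marks monocytes and macrophages, stood at 405 to 507 plain CPM untreated. The libraries are called libraries labelled monocytes throughout. Within each of their groups, libraries 1 and 2, and libraries 3 and 4, were closer to each other than across, with a chi-square per degree of freedom of at most 5.24 within and at least 12.2 across these pairs, so the result for that material is also given with each close pair summed. In the CD4 T cell libraries, Cd4 stood at 640.1 to 649 plain CPM untreated and 393 to 528 treated. The 8 CD4 T cell markers, Cd4 among them, summed to 3353 to 3408 plain CPM untreated and 3668 to 3982 treated. Of these 8, 4 were called higher and 0 lower. The melanocyte genes Tyrp1, Dct and Tyr had no read in any of the 8 libraries, which allows up to 0.170 CPM in the shallowest of them (3 counts of its total, counting error only). Over all 12 melanocyte markers the summed plain CPM there was 24.3 to 27.4 untreated and 7.67 to 10.7 treated. Of the 4 markers tested, Pmel (−1.35 ± 0.19), Trpm1 (−1.03 ± 0.22) and Rab38 (−1.57 ± 0.22 log2, SE) were lower and Mitf was not called, with Pmel at 10.3 to 12.6 plain CPM untreated and 2.59 to 4.68 treated. The part of the cells that carry these markers in the members' changes was not tested. The B and plasma cell markers of these libraries summed to 9100.2 to 9439 plain CPM untreated and 5033 to 9214 treated. That sum lay above the sum of the CD4 T cell markers in both groups, so these libraries held RNA of other cells too. The name CD4 T cells is used below as the label of these libraries. Treated CD4 T cell libraries 1 and 2 stood apart from each other (chi-square per degree of freedom 139, beside 5.46 between treated libraries 3 and 4). Leaving out any single CD4 T cell library ended only the call of Car9 among the members called in that material. In all of these bulk libraries, fewer cells of a type and less RNA per cell cannot be told apart.

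The level of the members differed between the 3 kinds of untreated material. Lengths are the union of all annotated exons, which can exceed a single transcript, so ranks between members depend on that choice. Per kilobase of exon, in plain CPM, Aldoa (aldolase A, which splits the sugar bisphosphate) was first among the 34 in untreated lung at 638 ± 159.6 (SD, n = 5) and in untreated libraries labelled monocytes at 232 ± 6.30 (SD, n = 4). In untreated CD4 T cells Ldha, which makes lactate from pyruvate, stood first at 132 ± 2.85, and Aldoa followed at 121 ± 3.66 (SD, n = 4), a gap larger than the spread between libraries. Tpi1, the triose phosphate isomerase, was second in untreated lung at 525 ± 143 per kilobase, within the spread of Pkm (pyruvate kinase) at 469 ± 111. In CD4 T cells Tpi1 stood at 46.5 ± 2.62 per kilobase. The lowest member per kilobase was Slc2a3 in untreated lung (2.22 ± 0.358), Car9 in untreated libraries labelled monocytes (1.86 ± 0.282) and P4ha2 in untreated CD4 T cells (0.224 ± 0.100).

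Against untreated lung, 22 of the 34 members were lower in the untreated libraries labelled monocytes and 3 were higher, where 31.3% of all 19838 tested genes were lower and 30.3% higher. The higher ones were Slc2a3, which encodes the high-affinity glucose transporter GLUT3 (1.59 ± 0.15 log2), Pfkfb3 (1.12 ± 0.065) and Pfkfb4 (0.39 ± 0.11; SE), whose enzymes make the activator of phosphofructokinase. In untreated CD4 T cells 26 members were lower than in lung and 4 higher, where 46.8% of all genes were lower and 37.3% higher. Slc2a3 was higher there too (2.20 ± 0.15 log2), with Pdk1 (1.34 ± 0.19), Hk1 (0.35 ± 0.10) and Pfkm (0.35 ± 0.069; SE). Both comparisons use the same untreated lung libraries, and the CD4 T cell counts come from a table of their own, so table and material cannot be told apart for them.

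Propranolol was accompanied by a fall of nearly the whole set in whole lung. In the libraries labelled monocytes 9 members were called, in both directions. In CD4 T cells 26 were called, more of them higher than lower. All 34 passed the filter on low counts in each material. In lung 31 of 34 were lower and 2 higher, where 35.3% of all 18639 tested genes were lower and 35.5% higher. The median log2 change was −1.81 for the members and 0.03 for all tested genes. In the libraries labelled monocytes 4 were lower and 5 higher, where 16.1% of all 18236 tested genes were lower and 14.3% higher, with a member median of 0.08. These 2 member counts are near those shares, so they are not read as a trait of the members. In CD4 T cells 9 were lower and 17 higher, where 29.9% of all 16550 tested genes were lower and 30.1% higher, with a member median of 0.27. The count of lower members there is near its share, so it is not read as a trait of the members.

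**Figure D1:**
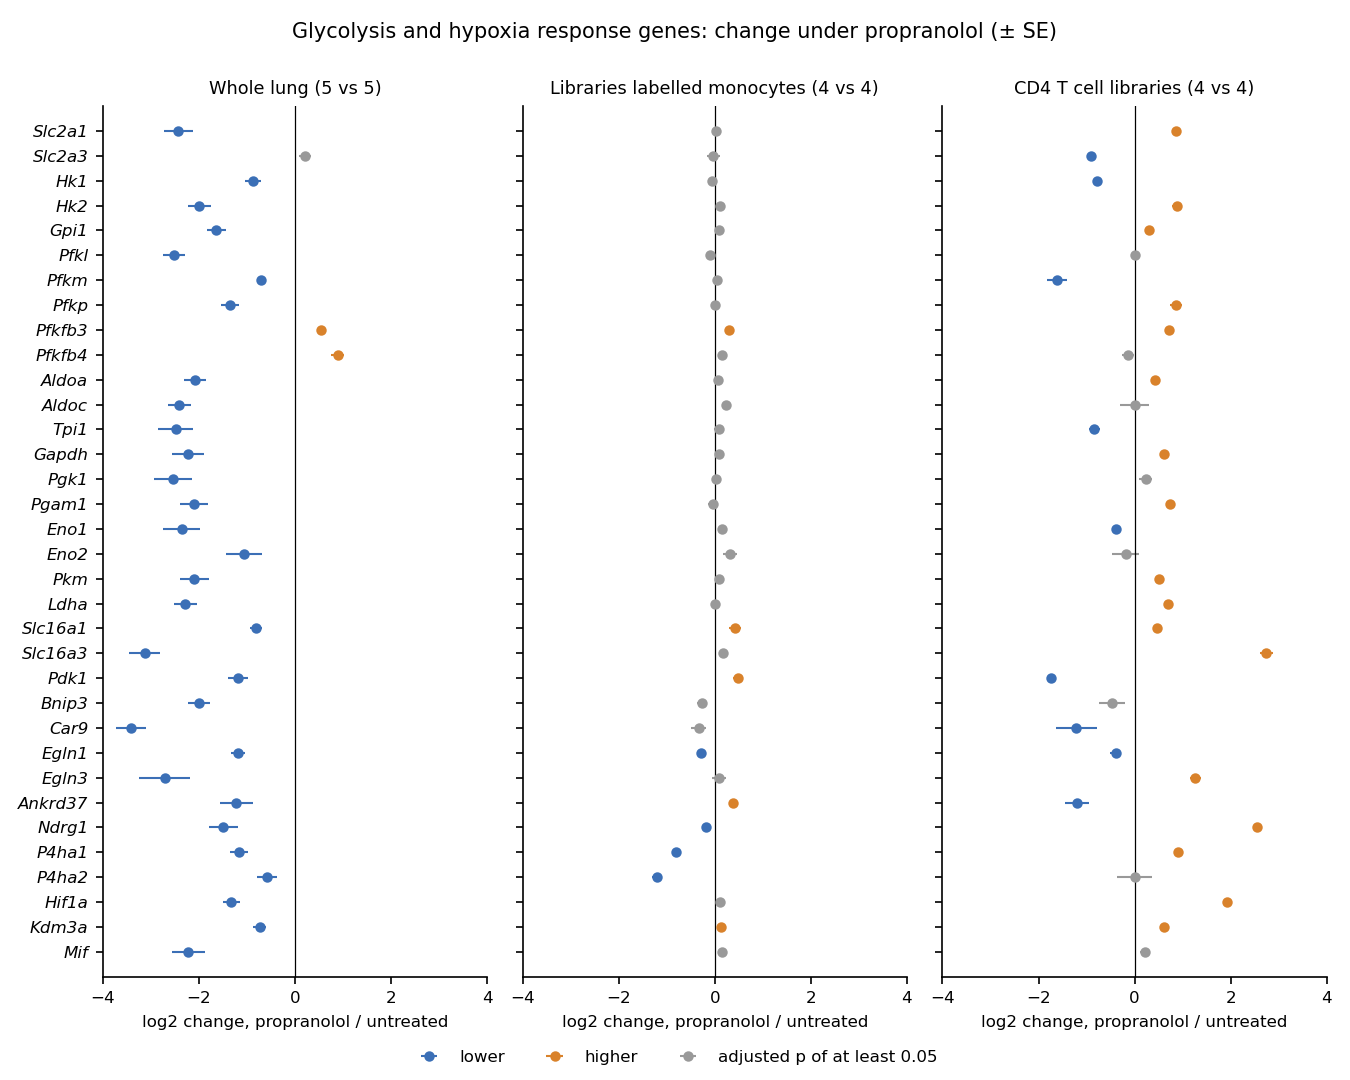
Log2 change with propranolol (x axis, ± SE) of the 34 members (y axis) in whole lung, libraries labelled monocytes and CD4 T cell libraries, coloured by call. In lung 31 members lie at a lower level, in the libraries labelled monocytes most lie near 0, and in CD4 T cells they spread from −1.74 (Pdk1) to 2.75 (Slc16a3).

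In whole lung the glucose transporters did not move together. Slc2a1, which encodes the widely expressed transporter GLUT1 and is a classical HIF target, stood at 182, 263, 95.5, 85.9 and 97.6 in untreated libraries 1 to 5 and at 27.2, 27.5, 25.2, 25.2 and 29.5 in treated libraries 1 to 5, a change of −2.43 ± 0.30 log2 (SE, adjusted p = 0.000118). Untreated libraries 1 and 2 were the highest, and all treated libraries lay within a narrow band below every untreated one. Slc2a3 stood at 18.7, 20.9, 17.8, 13.2 and 15.5 untreated and 19.9, 22.3, 20.5, 18.8 and 18.1 treated. Its groups overlapped, and its difference of 0.21 ± 0.12 log2 did not pass the test (SE, adjusted p = 0.131). With genes below a mean of 5 CPM left out it was 0.35 ± 0.12 (SE, adjusted p = 0.0178), and scaled on markers of resident lung cells −0.53 ± 0.21 (SE, adjusted p = 0.0392), so its direction depends on the scaling.

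The entry steps of glycolysis fell. Hk2, the inducible hexokinase that traps glucose in tumour and muscle cells, went from 226, 263, 118, 126 and 134 in the untreated libraries to 49.0, 41.3, 38.7, 34.2 and 54.9 in the treated ones (−1.99 ± 0.24 log2, SE, adjusted p = 0.000116). Hk1, the housekeeping hexokinase, went from 263, 279.8, 190.4, 204 and 219 to 156, 123, 91.3, 100 and 161 (−0.87 ± 0.17, SE, adjusted p = 0.00113). The drop of Hk2 was the deeper of the pair, and neither gene's groups overlapped. Gpi1, the isomerase of the next step, went from 985, 1015, 545, 710.4 and 696 to 292, 240.0, 206, 203 and 329 (−1.64 ± 0.20, SE, adjusted p = 0.000114).

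Phosphofructokinase is the committed step of glycolysis, built from liver, muscle and platelet type subunits. Pfkl, the liver type, fell from 567, 679, 291, 403 and 384 to 91.3, 78.1, 63.0, 67.8 and 106 (−2.52 ± 0.23 log2, SE, adjusted p = 5.38e-05), which is 5.72 times lower. Pfkp, the platelet type, fell from 346, 381, 207, 229.8 and 239.6 to 129.9, 104, 93.5, 90.0 and 134 (−1.35 ± 0.19, SE, adjusted p = 0.00019). Pfkm, the muscle type, fell from 54.0, 46.9, 41.3, 53.3 and 51.0 to 31.2, 29.6, 26.6, 30.6 and 32.7 (−0.71 ± 0.088, SE, adjusted p = 0.000124). For all 3 genes every treated library lay below every untreated one, and the smallest of the 3 drops was in Pfkm.

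Pfkfb3 and Pfkfb4, whose enzymes set the level of the activator of phosphofructokinase, were the only members called higher in lung. Pfkfb3 stood at 88.8, 88.7, 101, 84.0 and 94.6 untreated and 131, 140.2, 140.3, 146 and 111 treated (0.55 ± 0.084 log2, SE, adjusted p = 0.000271). Pfkfb4 stood at 22.3, 28.4, 35.2, 28.2 and 28.6 untreated and 47.8, 57.4, 55.7, 62.6 and 40.6 treated (0.89 ± 0.14, SE, adjusted p = 0.000284). No library of one group reached into the other for either gene. The calls depend on the scaling, since on markers of resident lung cells Pfkfb3 was −0.18 ± 0.14 (SE, adjusted p = 0.255) and Pfkfb4 0.16 ± 0.12 (SE, adjusted p = 0.231), a scaling that moved the median of all genes from 0.03 to −0.69.

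The lower enzymes of the pathway fell by similar amounts, from 4.25 times lower (Aldoa) to 5.82 times lower (Pgk1), apart from Eno2. Aldoa stood at 2482, 2600.2, 1312, 1846 and 1715 untreated and 564, 437, 369, 348 and 627 treated (−2.09 ± 0.23 log2, SE, adjusted p = 7.95e-05). Aldoc, the aldolase first known from brain, stood at 73.8, 71.5, 39.9, 80.1 and 62.6 untreated and 15.8, 11.4, 8.06, 9.75 and 16.8 treated (−2.41 ± 0.24, SE, adjusted p = 6.41e-05). Tpi1, which interconverts the triose phosphates, stood at 2009, 2049.9, 1013, 1294 and 1389.6 untreated and 396, 239, 156, 131 and 461 treated (−2.49 ± 0.36, SE, adjusted p = 0.000231). In all 3, treated libraries 1 and 5 were the highest of their group. Gapdh, the dehydrogenase that makes NADH, went from 1904, 2000, 1002, 1212 and 1311 to 437, 282, 189, 157 and 520.2 (−2.23 ± 0.34, SE, adjusted p = 0.000286). Pgk1, the first step that yields ATP, went from 657, 641, 322, 462 and 460.4 to 128, 73.3, 45.8, 34.7 and 155 (−2.54 ± 0.40, SE, adjusted p = 0.00032). Pgam1, the phosphoglycerate mutase, went from 156, 151, 82.9, 107 and 108 to 39.4, 22.8, 19.2, 16.6 and 43.5 (−2.10 ± 0.29, SE, adjusted p = 0.000181). Treated libraries 1 and 5 again stood above treated libraries 2, 3 and 4 for each of these genes.

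Eno1, the main enolase, went from 1375, 1462, 729, 941 and 912 untreated to 303, 177, 113, 94.5 and 367 treated (−2.36 ± 0.38 log2, SE, adjusted p = 0.000359). Eno2, the enolase of neurons and neuroendocrine cells, had overlapping groups, with 30.8, 31.1, 18.8, 15.4 and 16.9 untreated and 14.2, 8.35, 6.94, 4.41 and 20.3 treated (−1.06 ± 0.38, SE, adjusted p = 0.0264). Its call was lost when untreated library 1 or 2, or treated library 2, 3 or 4, was left out, with adjusted p up to 0.66 over all alternatives. Pkm went from 3124, 3246, 1721, 2258 and 2224 to 789.8, 527, 370, 346 and 907 (−2.10 ± 0.30, SE, adjusted p = 0.000195). Ldha, whose promoter is shown above, went from 1768, 1842, 913, 1319.9 and 1224 to 371, 277, 215, 199.5 and 392 (−2.28 ± 0.25, SE, adjusted p = 7.95e-05). Reads of Gapdh, Pgk1, Eno1, Mif, Bnip3 and Pgam1 can also belong to near-identical copies or overlapping genes, since 80.3%, 67.5%, 65.4%, 60.4%, 46.3% and 40.6% of the 75-base words of their longest transcripts occur in other genes, and the labels do not say how such reads were counted.

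Of the lactate transporter genes, Slc16a3 fell further than Slc16a1. Slc16a3 encodes MCT4, the HIF-induced exporter of glycolytic cells, and stood at 195, 291, 92.9, 102 and 115 untreated and 19.1, 23.4, 14.4, 16.5 and 17.5 treated, a change of −3.13 ± 0.32 log2 (SE, adjusted p = 6.92e-05) or 8.75 times lower. Slc16a1 encodes MCT1, which can carry lactate in or out, and stood at 99.4, 105, 79.7, 79.3 and 80.2 untreated and 61.0, 46.7, 44.5, 43.6 and 57.1 treated (−0.81 ± 0.12 log2, SE, adjusted p = 0.000265). Neither gene's groups overlapped.

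Among genes of acid control and mitochondria, Car9 had the deepest fall of all 34 members. Car9 encodes a carbonic anhydrase at the surface of hypoxic tumour cells, and stood at 40.9, 46.0, 15.5, 21.0 and 21.2 untreated and 3.04, 2.34, 2.33, 2.52 and 3.37 treated, which is 10.6 times lower (−3.41 ± 0.31 log2, SE, adjusted p = 5.1e-05). Bnip3, a mitophagy receptor, went from 101, 101, 43.4, 57.9 and 54.0 to 16.8, 18.9, 19.5, 17.96 and 16.3 (−1.997 ± 0.23, SE, adjusted p = 9.29e-05). Pdk1, the kinase that blocks pyruvate dehydrogenase, went from 115, 140.3, 61.3, 79.5 and 70.2 to 38.1, 43.2, 42.7, 42.8 and 37.7 (−1.19 ± 0.20, SE, adjusted p = 0.000481). For all 3 genes, untreated libraries 1 and 2 were the highest and the treated libraries ranged at most 1.45 times (Car9).

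The sensor genes fell as well. Hif1a, the alpha subunit itself, went from 311, 299, 189.5, 231 and 231 to 119, 91.3, 89.8, 71.6 and 131 (−1.33 ± 0.18 log2, SE, adjusted p = 0.000172). Egln1, the main prolyl hydroxylase that marks HIF for destruction, went from 228, 261, 148, 163 and 171 to 83.2, 88.2, 85.7, 91.4 and 77.9 (−1.19 ± 0.15, SE, adjusted p = 0.00012). Egln3, a prolyl hydroxylase that HIF itself induces, went from 14.8, 46.3, 13.7, 6.36 and 5.56 to 2.58, 2.47, 2.37, 2.44 and 3.30 (−2.71 ± 0.53, SE, adjusted p = 0.00108). Untreated library 2 stood far above the other untreated libraries for Egln3, yet the lowest untreated library was still above every treated one.

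Of the other hypoxia-induced members, Ndrg1, a stress-induced gene, went from 94.99, 190.2, 73.0, 58.8 and 55.0 to 38.0, 33.0, 35.2, 31.9 and 29.9 (−1.49 ± 0.30 log2, SE, adjusted p = 0.00134). Ankrd37, a HIF target of unclear function, went from 5.08, 12.4, 4.84, 4.01 and 3.10 to 2.11, 2.12, 2.78, 2.39 and 3.11 (−1.22 ± 0.34, SE, adjusted p = 0.00778), and its groups overlapped slightly. P4ha1, which hydroxylates collagen prolines, went from 203, 275, 146, 134 and 137 to 78.1, 74.8, 80.4, 91.0 and 75.4 (−1.16 ± 0.19, SE, adjusted p = 0.000373). In each of these genes untreated library 2 was the highest of all 10. P4ha2, the sister subunit, overlapped between groups, with 63.8, 99.6, 47.6, 46.3 and 45.7 untreated and 36.0, 41.2, 45.9, 44.9 and 33.6 treated (−0.59 ± 0.21, SE, adjusted p = 0.0264), and lost its call without treated library 1 or 5 (adjusted p up to 0.0997 over all alternatives). Kdm3a, a histone demethylase induced by HIF, went from 134, 145, 93.4, 105 and 106 to 71.2, 63.3, 64.1, 66.1 and 84.9 (−0.73 ± 0.13, SE, adjusted p = 0.000597). Mif, a cytokine that HIF induces, went from 296, 308, 169.7, 226 and 222 to 81.3, 45.3, 28.8, 24.4 and 81.5 (−2.23 ± 0.35, SE, adjusted p = 0.000299). Over all members in lung, 28 had every treated library below every untreated one and 2 the reverse, beside 34.3% and 22.8% of the 15324 genes whose mean reached 1 CPM.

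**Figure D2:**
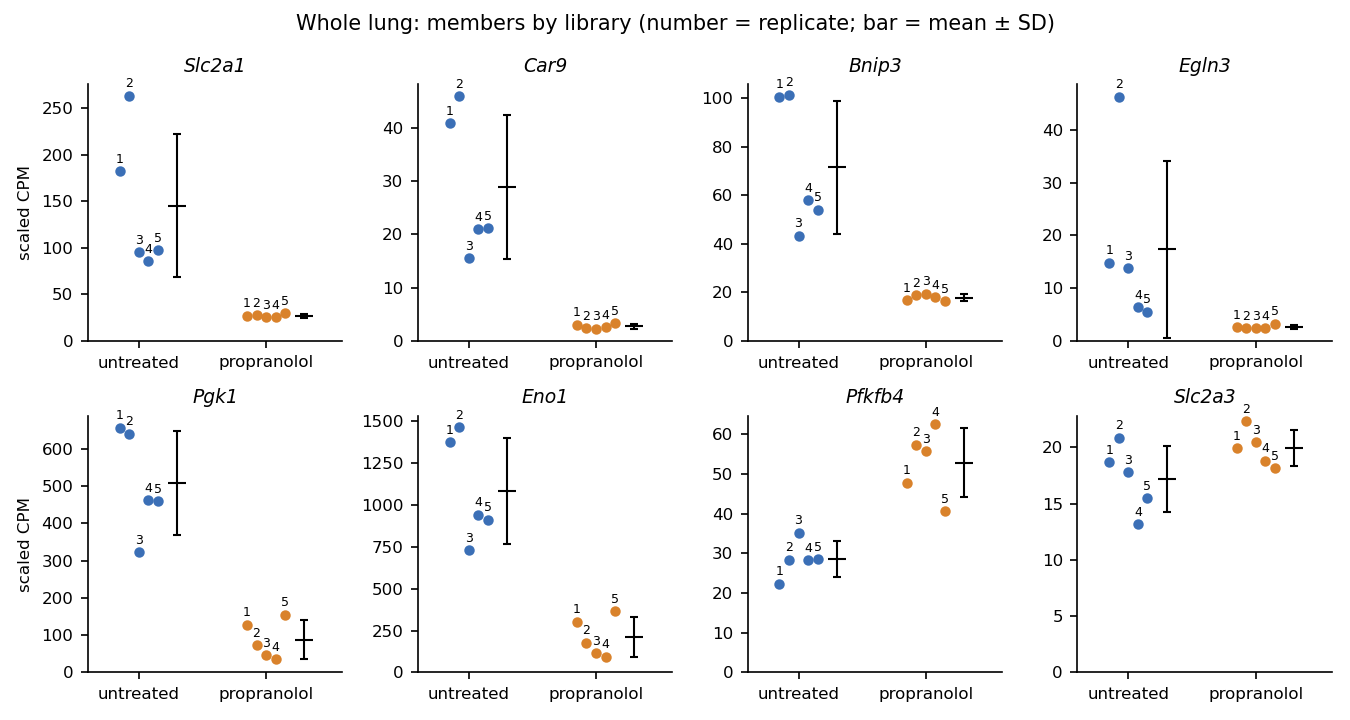
Scaled CPM (y axis) of 8 members in each of the 5 untreated and 5 propranolol lung libraries, numbered by replicate, with mean ± SD beside them. Untreated libraries 1 and 2 are the highest for Slc2a1, Car9, Bnip3 and Egln3, and the treated libraries are tightly grouped for each of these genes. Treated libraries 1 and 5 are the highest of their group for Pgk1 and Eno1.

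Melanocyte genes fell with the members in lung. All 12 melanocyte markers fell (median −2.07 log2), and their summed plain CPM was 21487, 17760, 14449, 19636 and 18176 in untreated libraries 1 to 5 and 7848, 3834, 1914, 1005 and 9243 in treated libraries 1 to 5. Tyrp1, a melanin synthesis enzyme, stood at 5601, 4776, 3429.9, 4848 and 4353 plain CPM untreated and 1723, 859.6, 451, 231 and 2034 treated. Dct changed by −1.97 ± 0.54, Pmel by −2.21 ± 0.51 and Mlana by −1.93 ± 0.49 log2 (SE). The 12 markers of dividing cells were all lower too, with Mki67 at −1.37 ± 0.31 log2 (SE), and 7 of 8 endothelial, all 8 alveolar type 2, all 8 B and plasma cell and all 8 CD4 T cell markers were higher. The part of these cells in the changes of the members was not tested. The spread and the covariate fit that follow are descriptions and do not measure it. The summed plain CPM of the 34 members was 16525, 17985, 9648, 12119 and 11997 in the untreated and 4969, 3725, 3001, 2814 and 5608 in the treated libraries. Among treated libraries it was highest in libraries 1 and 5, as was the melanocyte sum. Among untreated libraries the order differed, since the highest member sum, 17985, was in the library with a melanocyte sum of 17760, below the highest of 21487.

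Among the 5 treated lungs the melanocyte sum ranged 9.20 times from lowest to highest, and the members differed by degrees in how far they ranged. Eno1 ranged 3.89 times, Pgk1 4.46, Tpi1 3.52, Mif 3.34, Gapdh 3.31, and Eno2 the most, 4.60, each lowest in treated library 4, which had the lowest melanocyte sum, and highest in treated library 5, which had the highest. In contrast Pdk1 ranged 1.15 times, Slc2a1 1.17, Egln1 1.17, Bnip3 1.19 and P4ha1 1.22 over the same 5 libraries. Other members lay between, among them Ldha at 1.96, Aldoa at 1.80, Hk1 at 1.77 and Gpi1 at 1.62. Of the 34 members, 25 ranged less than 2 times among treated lungs and 9 more. Among the untreated lungs, whose melanocyte sum ranged 1.49 times, Slc2a1 ranged 3.07 times, Slc16a3 3.13 and Egln3 8.33, and 18 members ranged more than 2 times. With 5 libraries a group, these ranges are a description without a test.

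With the mean log2 level of the melanocyte markers as a covariate in the fit, 22 of the 33 calls in lung passed, all lower, when 2424 of 18639 genes passed at all. Car9 was −3.04 ± 0.55 log2 (SE, adjusted p = 0.0125), Slc16a3 −2.96 ± 0.57 (SE, adjusted p = 0.0147), Slc2a1 −2.31 ± 0.52 (SE, adjusted p = 0.024) and Bnip3 −2.08 ± 0.42 (SE, adjusted p = 0.0168), each close to its value without the covariate. Pgk1 was −1.08 ± 0.27 (SE, adjusted p = 0.0306), Eno1 −1.03 ± 0.30 (SE, adjusted p = 0.0458), Gapdh −1.04 ± 0.30 (SE, adjusted p = 0.0441) and Mif −0.94 ± 0.24 (SE, adjusted p = 0.0326), all smaller than without it. The calls of 10 members were lost. For 4 of these the value was about as large as without the covariate or larger, with a wider error, at −2.68 ± 0.94 for Egln3, −1.28 ± 0.60 for Ankrd37, −1.55 ± 0.54 for Ndrg1 and −0.95 ± 0.35 log2 for P4ha2 (SE). For the other 6 it was smaller, at −0.30 ± 0.19 for Hk1, −0.89 ± 0.27 for Pfkp, 0.30 ± 0.11 for Pfkfb3, 0.44 ± 0.16 for Pfkfb4, −0.46 ± 0.16 for Slc16a1 and −0.51 ± 0.21 log2 for Kdm3a (SE). Eno2 changed sign to 0.25 ± 0.37 (SE, adjusted p = 0.66). The melanocyte level itself differs between the groups, so in this fit it and the treatment share part of what they account for.

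**Figure D3:**
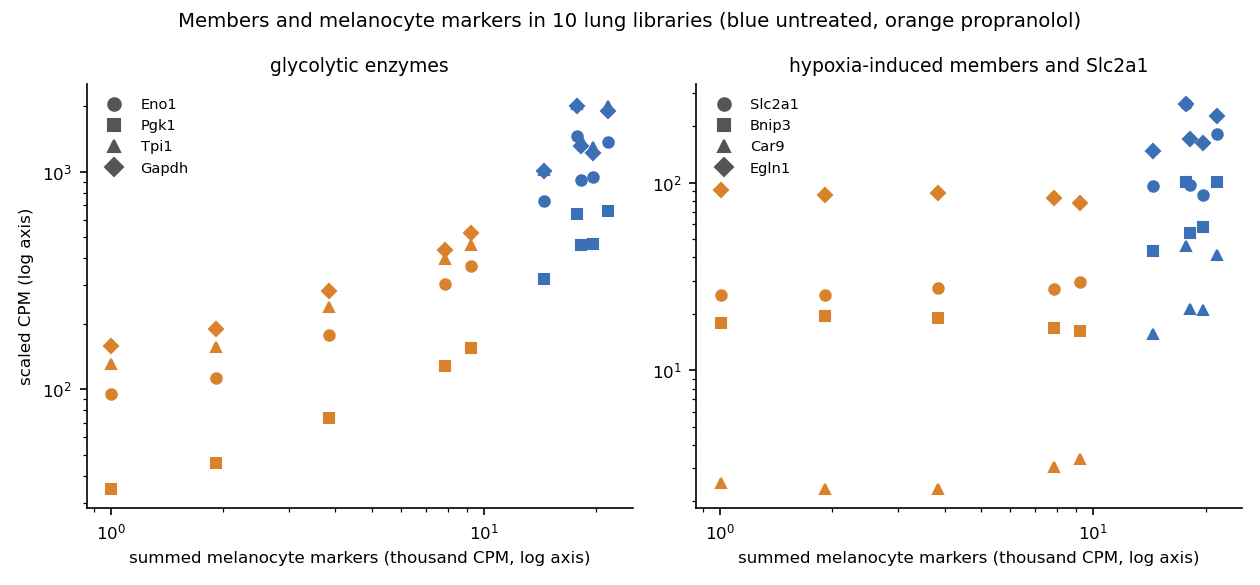
Scaled CPM of 4 glycolytic enzymes (left) and of Slc2a1, Bnip3, Car9 and Egln1 (right) against the summed plain CPM of 12 melanocyte markers in the 10 lung libraries, on log axes (blue untreated, orange propranolol). Among the 5 treated libraries the enzymes on the left rise with the melanocyte sum while the genes on the right stay within a narrow band, from 25.2 to 29.5 for Slc2a1.

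Other genes of these pathways, from lists that do not overlap the members, moved in lung as follows. Of 18 tested further glycolytic isozymes and regulators, 8 were lower and 5 higher, with Ldhb, the other lactate dehydrogenase subunit, at −0.99 ± 0.12 log2 and Bsg, the chaperone of the lactate transporters, at −0.98 ± 0.15 (SE). Pfkfb2, a relative of Pfkfb3 and Pfkfb4, was higher at 0.68 ± 0.086 (SE). Of 30 other hypoxia-induced genes, 21 were lower and 4 higher. Adm, which encodes adrenomedullin, changed by −2.20 ± 0.21, Fam162a by −2.10 ± 0.19, Loxl2, a collagen cross-linking enzyme, by −1.72 ± 0.18 and Ddit4, an inhibitor of mTOR complex signalling, by −1.46 ± 0.13 log2 (SE). The 4 higher ones were Vegfa, the endothelial growth factor (1.02 ± 0.15), Vldlr (0.75 ± 0.13), Stc2 (0.92 ± 0.22) and Hilpda (0.60 ± 0.16; SE).

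Among 12 HIF subunits and turnover genes 7 were lower in lung, with Vhl, the subunit that recognises hydroxylated HIF, at −0.84 ± 0.095 and its partner Eloc at −0.80 ± 0.092 log2 (SE). The 2 higher ones were Hif3a (1.76 ± 0.31) and Epas1, which encodes HIF-2 alpha of endothelium (1.11 ± 0.36; SE). All 16 tricarboxylic acid cycle genes were lower, with a median of −0.81, among them Cs, citrate synthase, at −0.77 ± 0.10 log2 (SE). All 7 genes of the pentose phosphate pathway were lower, with a median of −0.51 and Tkt, transketolase, at −0.68 ± 0.10 (SE). For pyruvate entry to mitochondria 9 of 13 were lower and 3 higher, and for gluconeogenesis 1 of 4 was lower and 2 higher. The median over all genes tested was 0.03, with 35.3% of them lower and 35.5% higher.

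In the libraries labelled monocytes the number of members called depended on the fit, as did the number of all genes called. On library totals 10 members were higher and 4 lower, where 3644 of all 18236 tested genes were higher and 2424 lower. With close pairs summed 0 were higher and 3 lower, where 1.98% of all 20638 tested genes were higher and 4.69% lower. Both alternatives were added after the data were seen. Of the 22 genes of glucose uptake, glycolysis and lactate transport, 20 did not pass the test, with log2 differences from −0.11 (Pfkl) to 0.32 (Eno2). Hif1a stood at 161, 157, 139 and 146 untreated and 155, 157, 173 and 169.6 treated (0.12 ± 0.056 log2, SE, adjusted p = 0.132), and its groups overlapped. Ldha stood at 514, 510.4, 501 and 489 untreated and 476, 501, 522 and 535 treated (0.013 ± 0.043, SE, adjusted p = 0.841). Slc2a1 stood at 98.9, 99.3, 98.9 and 88.5 untreated and 88.9, 90.1, 108 and 106 treated (0.029 ± 0.071, SE, adjusted p = 0.796).

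The clearest falls in that material were of the collagen prolyl hydroxylases. P4ha1 stood at 157, 153, 151 and 147 in untreated libraries 1 to 4 and at 82.3, 82.7, 88.1 and 93.7 in treated ones (−0.81 ± 0.048 log2, SE, adjusted p = 1.03e-06). P4ha2 stood at 45.1, 45.7, 47.0 and 44.0 untreated and 17.1, 17.2, 22.1 and 22.1 treated (−1.21 ± 0.091, SE, adjusted p = 4.46e-06), 2.32 times lower. Egln1, the HIF prolyl hydroxylase, stood at 97.4, 92.3, 94.1 and 94.5 untreated and 79.6, 75.6, 78.3 and 75.1 treated (−0.29 ± 0.038, SE, adjusted p = 0.000188). These 3 were also called with each close pair of libraries summed, P4ha1 at −0.82 ± 0.081 (adjusted p = 0.0109), P4ha2 at −1.22 ± 0.14 (adjusted p = 0.0126) and Egln1 at −0.30 ± 0.063 (adjusted p = 0.048; SE), and they were the only members called in that fit, when 1377 of 20638 genes were. Ndrg1 stood at 79.3, 76.7, 75 and 72.0 untreated and 62.6, 64.5, 68.3 and 70.1 treated (−0.19 ± 0.049, SE, adjusted p = 0.0136), and with the pairs summed at −0.20 ± 0.081 (SE, adjusted p = 0.213).

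The 5 members called higher in the libraries labelled monocytes had small changes, and each lost its call with the close pairs summed, where 2 libraries a group remained and the log2 changes were 0.46 ± 0.14 for Pdk1, 0.41 ± 0.15 for Slc16a1, 0.29 ± 0.089 for Pfkfb3, 0.36 ± 0.11 for Ankrd37 and 0.12 ± 0.067 for Kdm3a (SE). Pdk1 stood at 29.9, 30.6, 34.5 and 37.3 untreated and 53.5, 49.8, 41.8 and 39.4 treated (0.48 ± 0.11 log2, SE, adjusted p = 0.00574; pairs summed, adjusted p = 0.113). Slc16a1 stood at 42.7, 45.2, 51.3 and 52.5 untreated and 74.6, 73.4, 56.3 and 52.5 treated (0.42 ± 0.12, SE, adjusted p = 0.0203; pairs summed, adjusted p = 0.187), and its call was also lost without untreated or treated library 1 or 2. In both genes treated libraries 1 and 2 were higher than treated libraries 3 and 4. Pfkfb3 stood at 176, 177, 164 and 166 untreated and 236, 219.7, 199 and 188 treated (0.30 ± 0.066, SE, adjusted p = 0.0053; pairs summed, adjusted p = 0.12). Ankrd37 stood at 8.17, 7.31, 7.67 and 8.21 untreated and 11.01, 10.3, 9.97 and 9.33 treated (0.37 ± 0.082, SE, adjusted p = 0.00582; pairs summed, adjusted p = 0.118). Kdm3a stood at 85.5, 85.3, 84.4 and 85.8 untreated and 97.6, 97.0, 91.9 and 88.0 treated (0.13 ± 0.042, SE, adjusted p = 0.0328; pairs summed, adjusted p = 0.327), and its call was lost on leaving out any single library except treated library 4. Of the 9 called members only Slc16a1 had overlapping groups, and Gpi1, not called, had every treated library higher. The 4 members with every treated library lower and the 5 with every one higher stand beside 19.8% and 16.9% of 14825 genes.

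Markers of other cell types moved in the same libraries. All 8 endothelial markers were lower, with a summed plain CPM of 5708 to 5833 untreated and 4338 to 4365 treated, and 6 of 8 fibroblast markers were lower and 2 higher (2280.1 to 2609 and 1469 to 1507). Melanocyte markers were higher in 9 of 12 (sums given above), as were all 8 B and plasma cell markers and 6 of 8 markers of CD8 T and NK cells, and all 6 alveolar type 1 markers were lower. The part these cells have in the fall of P4ha1, P4ha2 and Egln1 was not tested. Of 30 other hypoxia-induced genes 9 were lower and 4 higher, the lower ones led by Vegfa (−0.55 ± 0.038), Lox (−0.63 ± 0.053), Loxl2 (−0.55 ± 0.062) and Vldlr (−0.41 ± 0.062; log2, SE), of which Lox and Loxl2 cross-link collagen. Epas1 was lower at −0.43 ± 0.038 (SE). Among 16 tricarboxylic acid cycle genes 9 were higher, with a median of 0.11, and among 7 genes of the pentose phosphate pathway 4 were higher, Taldo1 with the smallest p, at 0.27 ± 0.036 log2 (SE). The 13 genes of pyruvate entry to mitochondria ranged from −0.25 to 0.16 log2. Of 17 further glycolytic isozymes and regulators 4 were higher, with Eno3, the muscle enolase, at 0.92 ± 0.072 log2 (SE). Of 12 HIF subunits and turnover genes 1 was higher and 2 lower, and of 5 gluconeogenesis genes 1 was higher. These list counts stand beside 16.1% of all tested genes lower and 14.3% higher in that material.

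In the CD4 T cell libraries the regulators of the hypoxia response moved in opposite directions. Hif1a stood at 145, 145, 157 and 155 in untreated libraries 1 to 4 and 606, 509.8, 589.9 and 578 in treated ones, 3.79 times higher (1.92 ± 0.068 log2, SE, adjusted p = 6.4e-10). Egln3 stood at 9.60, 7.44, 10.5 and 9.12 untreated and 21.1, 23.9, 21.1 and 22.0 treated (1.27 ± 0.12, SE, adjusted p = 2.86e-06). Egln1 went the other way, from 84.1, 75.1, 75.1 and 74.8 to 46.5, 74.0, 60.0 and 54.8 (−0.40 ± 0.12, SE, adjusted p = 0.0138). The Hif1a and Egln3 groups were far apart, while treated library 2 of Egln1 nearly reached the untreated libraries.

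Trimmed-mean factors were 1.141 to 1.146 in the untreated and 0.8673 to 0.8794 in the treated CD4 T cell libraries. On library totals alone, an alternative added after the data were seen, the median of all genes moved from −0.04 to −0.42 and the split of member calls from 17 higher and 9 lower to 13 higher and 12 lower. Of all tested genes, 17.4% were then higher and 48.7% lower. Members with small changes lost or gained calls with that shift. Gpi1 was then −0.088 ± 0.057, Aldoa 0.037 ± 0.054, Pkm 0.13 ± 0.054 and Slc16a1 0.084 ± 0.073 log2 (SE), none called, and Pfkl (−0.38 ± 0.060), Pfkfb4 (−0.52 ± 0.12) and Bnip3 (−0.86 ± 0.27; SE) were called lower. Hif1a was 1.54 ± 0.068 and Pdk1 −2.13 ± 0.057 (SE) on that scale.

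In CD4 T cells the 2 glucose transporter genes moved in opposite directions, as did the 2 hexokinase genes. Slc2a1 rose from 27.2, 30.3, 28.6 and 27.8 to 53.7, 53.4, 54.7 and 45.6 (0.86 ± 0.082 log2, SE, adjusted p = 3.3e-06). Slc2a3, which resting lymphocytes express highly, fell from 76.3, 74.9, 76.5 and 70.1 to 40.2, 39.1, 38.9 and 39.8 (−0.92 ± 0.062, SE, adjusted p = 1.91e-07). Hk2 rose from 11.3, 14.1, 14.0 and 13.8 to 24.8, 22.2, 24.1 and 27.0 (0.88 ± 0.10, SE, adjusted p = 2.07e-05). Hk1 fell from 275, 278, 283 and 276 to 149, 187, 160.5 and 152 (−0.78 ± 0.074, SE, adjusted p = 3.18e-06). There was no overlap between groups for any of the 4 genes.

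Phosphofructokinase subunits also diverged. Pfkp rose from 161, 154, 156 and 158 to 344, 209.6, 285 and 310.3 (0.87 ± 0.12 log2, SE, adjusted p = 7.57e-05). Pfkm fell from 61.2, 59.5, 58.3 and 57.7 to 11.1, 28.3, 19.4 and 18.7 (−1.62 ± 0.21, SE, adjusted p = 4.21e-05). Treated library 2 was the closest to the untreated group for both genes and treated library 1 the farthest. Pfkl stood at 82.4, 82.3, 83.0 and 83.5 untreated and 83.9, 90.5, 81.1 and 77.9 treated (0.0081 ± 0.062, SE, adjusted p = 0.921). Pfkfb3 rose from 42.4, 47.8, 45.2 and 44.7 to 75.9, 70.5, 74.2 and 76.8 (0.72 ± 0.066, SE, adjusted p = 2.22e-06).

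The enzymes of the middle and end of glycolysis were divided in CD4 T cells. Those that rose were Gapdh (247, 246, 248 and 248 untreated, 399, 384, 355 and 370.4 treated, 0.61 ± 0.054 log2), Pgam1 (10.4, 10.5, 11.2 and 10.9 and 16.4, 19.6, 17.7 and 18.5, 0.74 ± 0.10; SE) and Ldha. Ldha went from 371, 391, 381 and 386 to 524, 738, 624 and 607 (0.70 ± 0.089, SE, adjusted p = 3.42e-05), the highest level in treated library 2. Aldoa went from 293, 307, 313 and 315 to 418, 435, 399.9 and 396 (0.42 ± 0.055, SE, adjusted p = 4.32e-05). These genes were higher in every treated library than in any untreated one. Pkm went from 362, 387, 386 and 402 to 573, 557, 538 and 536 (0.52 ± 0.055, SE, adjusted p = 7.76e-06), and Gpi1 from 301, 315, 312 and 324 to 414, 382, 376 and 369 (0.30 ± 0.057, SE, adjusted p = 0.000765). Both were higher in all 4 treated libraries on this scale.

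Those that fell were Tpi1 and Eno1. Tpi1 went from 118, 112, 104 and 114 to 49.8, 76.9, 64.5 and 58.7 (−0.84 ± 0.11 log2, SE, adjusted p = 5.52e-05). Eno1 went from 195, 197, 189 and 201 to 145, 165, 148 and 142 (−0.38 ± 0.062, SE, adjusted p = 0.000233), a small fall with no overlap. Pgk1 stood at 42.2, 39.4, 34.9 and 36.0 untreated and 34.7, 56.9, 45.6 and 42.3 treated (0.23 ± 0.13, SE, adjusted p = 0.152), with overlapping groups. Aldoc, Eno2, Pfkfb4, P4ha2, Bnip3 and Mif were not called either, with log2 differences from −0.47 (Bnip3) to 0.21 (Mif). Aldoc, Eno2, P4ha2 and Bnip3 stood at or below 3.72 scaled CPM (Aldoc in treated library 4) in every CD4 T cell library.

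Of the lactate transporter genes in CD4 T cells, Slc16a3 rose the most. It stood at 7.57, 12.4, 12.2 and 12.6 untreated and 72.2, 81.1, 74.98 and 74.7 treated, 6.71 times higher (2.75 ± 0.14 log2, SE, adjusted p = 1.44e-08). Slc16a1 went from 102, 92.1, 90.7 and 89.7 to 118, 143, 135 and 124 (0.47 ± 0.075, SE, adjusted p = 0.000195), a call lost on library totals. Pdk1, the brake on pyruvate dehydrogenase, had the deepest fall of the members in CD4 T cells, from 224, 219.8, 227 and 223 to 63.4, 70.6, 69.3 and 65.0 (−1.74 ± 0.058, SE, adjusted p = 3.91e-10). Its untreated libraries agreed closely with each other, as did the treated ones, and the level was 3.34 times lower.

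Of the other hypoxia-induced members, Ndrg1 went from 13.5, 16.4, 15.4 and 16.1 to 95.3, 95.9, 85.1 and 85.3, 5.86 times higher (2.55 ± 0.086 log2, SE, adjusted p = 4.68e-10). P4ha1 went from 38.4, 41.4, 37.5 and 38.1 to 73.5, 78.1, 70.2 and 67.3 (0.90 ± 0.071, SE, adjusted p = 7.38e-07). Kdm3a went from 101, 106, 99.6 and 98.9 to 171, 129.5, 161 and 162 (0.62 ± 0.083, SE, adjusted p = 5.25e-05). All 3 rose in every treated library. Ankrd37 fell from 4.01, 2.46, 3.99 and 4.27 to 1.504, 1.33, 1.497 and 2.03 (−1.21 ± 0.25, SE, adjusted p = 0.00141). Car9, at a low level, stood at 1.19, 1.90, 1.38 and 1.49 untreated and 0.537, 1.21, 0.306 and 0.555 treated (−1.22 ± 0.42, SE, adjusted p = 0.0272) and lost its call without untreated library 2 or 4 or treated library 1, 3 or 4, with adjusted p up to 0.0849. In all, 8 members had every treated CD4 T cell library below every untreated one and 17 the reverse, beside 29.8% and 32.5% of 13498 genes.

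**Figure D4:**
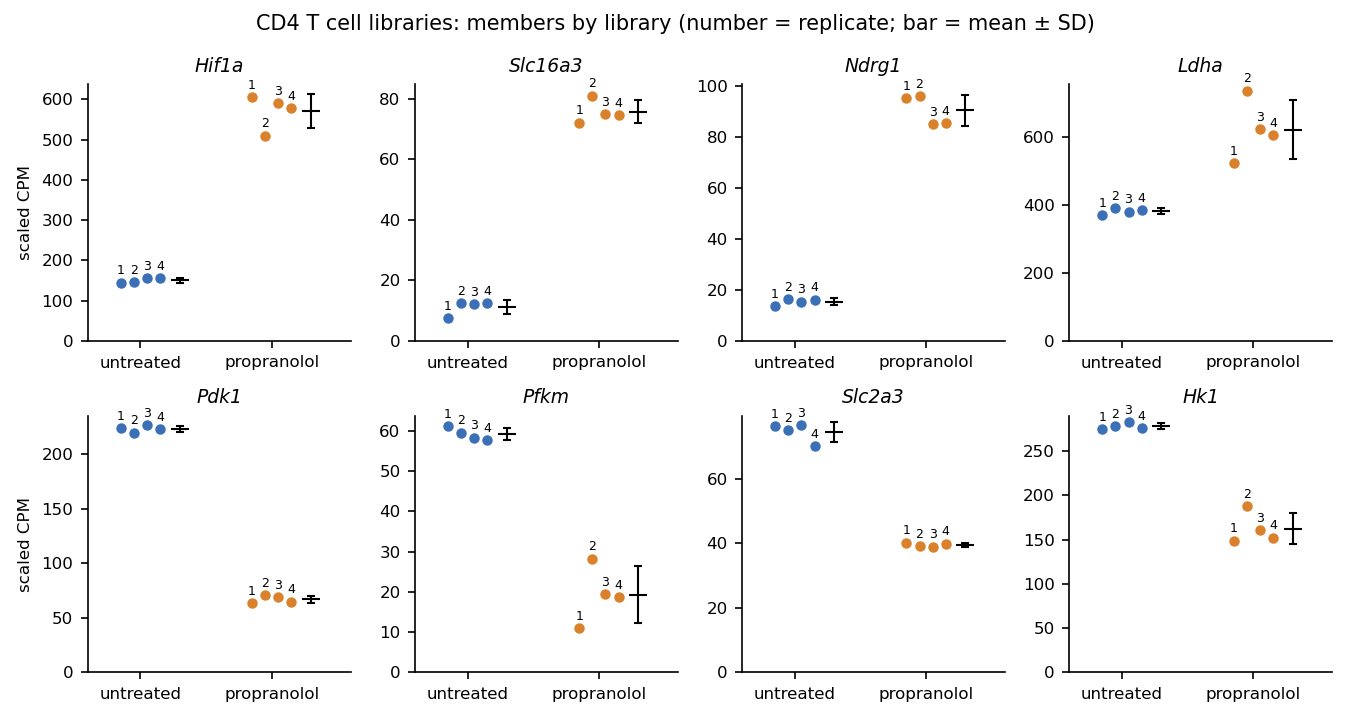
Scaled CPM (y axis) of 8 members in each of the 4 untreated and 4 propranolol CD4 T cell libraries, numbered by replicate, with mean ± SD beside them. Hif1a, Slc16a3, Ndrg1 and Ldha are higher and Pdk1, Pfkm, Slc2a3 and Hk1 lower in every treated library, with treated library 2 nearest to the untreated ones for Pfkm and Hk1.

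Other genes moved in the same CD4 T cell libraries. Nr4a1, an immediate early gene of stimulated lymphocytes that is also listed as a monocyte marker, stood at 91.2 to 97.9 plain CPM untreated and 2867 to 3519 treated. All 8 neutrophil markers were higher, with summed plain CPM of 126 to 178 untreated and 488 to 790.3 treated, and all 6 erythroid markers (233 to 277 and 329 to 1236). Of 8 monocyte markers 6 were higher, with sums of 288 to 332 and 3213 to 3896 that include Nr4a1, and the 8 alveolar macrophage markers summed to 41.2 to 45.3 and 129 to 169. Of 8 B and plasma cell markers 6 were higher, while the plain CPM sum of the 8, given above, was not higher in the treated libraries. Of 12 markers of dividing cells 7 were lower and 2 higher (2051 to 2148 and 1049 to 1647). The part of any of these in the changes of the members was not tested.

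Of 30 other hypoxia-induced genes, 27 were tested in CD4 T cells, with 14 higher and 6 lower. Bhlhe40, a transcription factor of activated T cells, changed by 3.68 ± 0.12, Vegfa by 3.37 ± 0.15, Mxi1, an antagonist of Myc, by 2.51 ± 0.084 and Wsb1 by 1.87 ± 0.071 log2 (SE). Ddit4 fell (−1.13 ± 0.10), as did Pgm1, which feeds glycogen synthesis (−0.88 ± 0.10; SE). Of 12 HIF subunits and turnover genes 9 were higher and 2 lower, with Epas1 at 2.704 ± 0.079, Arnt, the common beta subunit, at 0.68 ± 0.070, Cul2, the scaffold of the ligase that destroys HIF, at 1.30 ± 0.085 and Hif3a at −2.002 ± 0.21 log2 (SE). Among 17 further glycolytic isozymes and regulators 5 were higher and 6 lower, with the hexose transporter Slc2a6 at 2.95 ± 0.12 and Pklr, pyruvate kinase of liver and red cells, at −2.62 ± 0.20 (SE). For pyruvate entry to mitochondria 6 of 12 were higher and 2 lower. There Pdp1, the phosphatase that opposes Pdk1, changed by 1.52 ± 0.10 and Pdk2, a sister kinase of Pdk1, by −1.25 ± 0.15 (SE). Of 16 tricarboxylic acid cycle genes 6 were lower and 2 higher, with a median of −0.16. For gluconeogenesis 1 of 4 was higher and 1 lower, and for the pentose phosphate pathway 2 of 7 were higher and 2 lower. These list counts stand beside 29.9% of all tested genes lower and 30.1% higher in that material.

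The propranolol change of most members differed between lung and the other materials when the difference itself was tested. It was higher in the libraries labelled monocytes than in lung for 29 of 34 members and lower for 3, where 25.2% of all 20328 tested genes were higher and 32.3% lower. The 3 lower ones were Pfkfb3 (−0.37 ± 0.13), Pfkfb4 (−0.86 ± 0.19) and P4ha2 (−0.74 ± 0.28; log2, SE). On resident cell markers, where 48.3% of all genes were higher and 10.1% lower, Pfkfb3 turned to 0.48 and P4ha2 to 0.16, and Pfkfb4 did not pass. The call of Pfkfb3 was lost without untreated lung library 1, 4 or 5, treated lung library 1 or 4, or monocyte library 1 or 2 of the untreated or 4 of the treated group. That of P4ha2 was lost without untreated lung library 1, 3, 4 or 5, treated lung library 1, 3 or 4, or monocyte library 1 or 2 of either group. In CD4 T cells it was higher than in lung for 25 members and lower for 4, where 24.0% of all 20832 tested genes were higher and 32.2% lower. The largest differences against CD4 T cells were of Slc16a3 (5.70 ± 0.39 log2), Ndrg1 (3.86 ± 0.37), Egln3 (3.80 ± 0.61), Slc2a1 (3.11 ± 0.34) and Hif1a (3.08 ± 0.20; SE). The 4 lower ones were Slc2a3 (−1.31 ± 0.15), Pfkfb4 (−1.20 ± 0.22), Pfkm (−1.09 ± 0.22) and Pdk1 (−0.74 ± 0.23; SE), and none of these 4 passed with lung scaled on resident cell markers, where 28 members were higher and 0 lower beside 40.5% and 14.4% of all genes (median 0.62 log2). Both comparisons share the 10 lung libraries.

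The isozyme shares within a family do not depend on how libraries are scaled to each other. They do depend on gene length, taken as the union of all annotated exons. For Pfkp this was 13401 bases beside 4145 in its longest transcript, and for Hk1 8532 beside 4278. For Pfkm it was 3340 beside 2879. Which isozyme leads, and the size of a share, can therefore differ with another length. Within glucose transport per kilobase, Slc2a3 made up 6.15% ± 1.88 of Slc2a1 and Slc2a3 in untreated lung and 26.4% ± 2.16 in treated lung (SD, n = 5), while in CD4 T cells it fell from 55.8% ± 1.40 to 27.0% ± 1.84 (SD, n = 4). Hk2 made up 50.6% ± 5.21 of the hexokinase pair in untreated and 33.4% ± 2.58 in treated lung (SD, n = 5), and 6.39% ± 0.550 and 17.9% ± 2.52 in CD4 T cells (SD, n = 4). In the libraries labelled monocytes it was 50.1% ± 0.536 and 53.2% ± 1.37 (SD, n = 4). The shares of both genes thus moved in opposite directions in lung and in CD4 T cells, with no overlap between groups in either.

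For phosphofructokinase, Pfkl had the largest share in untreated lung at 65.3% ± 3.61 and fell to 41.1% ± 2.32 (SD, n = 5), as Pfkm went from 14.7% ± 3.36 to 31.0% ± 3.11. In CD4 T cells, on the exon lengths used, Pfkm led untreated at 42.3% ± 0.653 and stood at 14.8% ± 5.95 treated (SD, n = 4). In the treated libraries Pfkp led at 53.7% ± 8.68. The order of Pfkm and Pfkp in untreated CD4 T cells depends on the length taken for Pfkp. For lactate transport, Slc16a3 went from 57.4% ± 8.37 to 23.1% ± 3.79 in lung (SD, n = 5) and from 9.09% ± 2.19 to 32.7% ± 1.04 in CD4 T cells (SD, n = 4), and stood at 77.4% ± 0.817 and 74.4% ± 4.21 in the libraries labelled monocytes, whose groups overlapped. Egln3 went from 13.8% ± 1.68 to 33.9% ± 3.35 of the prolyl hydroxylase pair in CD4 T cells (SD, n = 4). P4ha2 went from 16.5% ± 0.440 to 12.9% ± 1.07 of the collagen hydroxylase pair in the libraries labelled monocytes (SD, n = 4) and from 18.2% ± 0.819 to 24.9% ± 2.02 in lung (SD, n = 5). Aldoa and Eno1 made up at least 93.4% of their pairs in every library. These shares are given without a test.

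**Figure D5:**
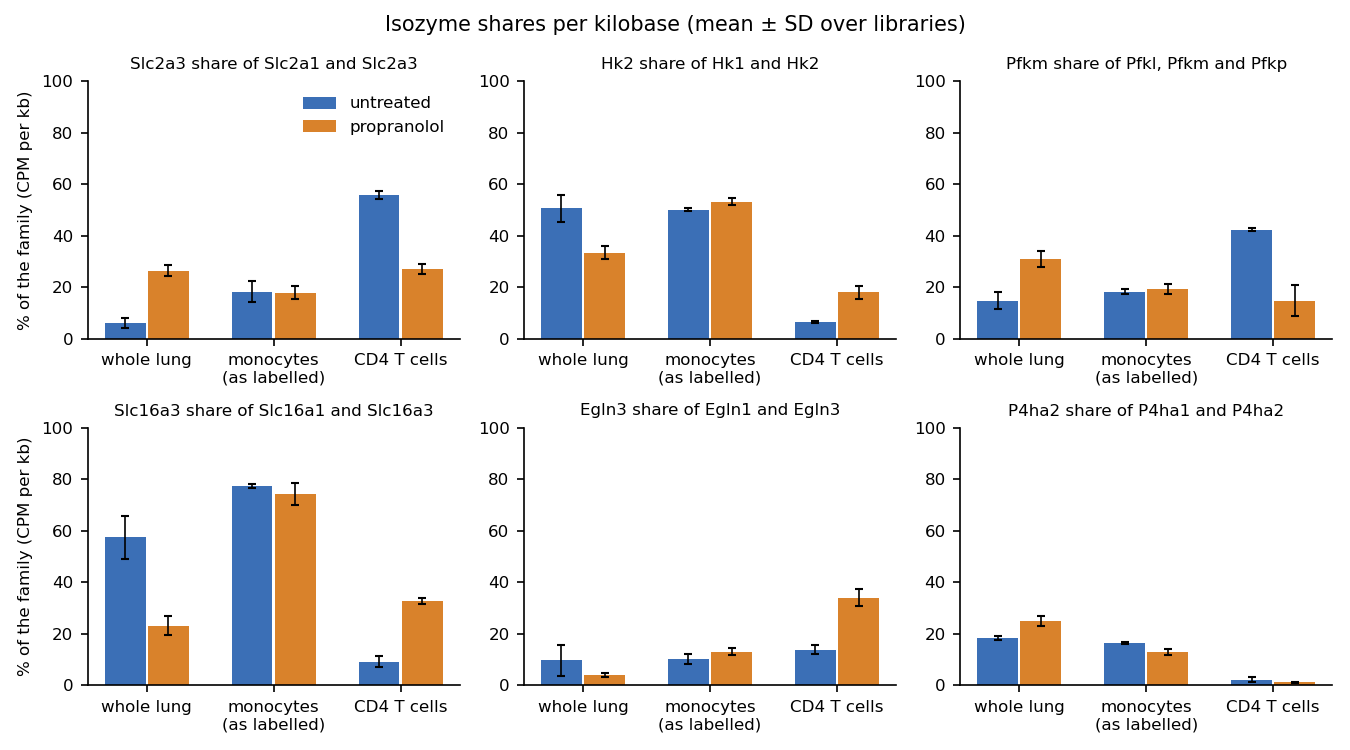
Share of 1 isozyme in its family per kilobase of exon (y axis, percent, mean ± SD over libraries) in untreated and propranolol libraries of whole lung (n = 5), libraries labelled monocytes (n = 4) and CD4 T cells (n = 4). With propranolol the Slc2a3 share is higher in lung and lower in CD4 T cells, and the Hk2 and Slc16a3 shares are lower in lung and higher in CD4 T cells.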

How the data were processed

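The values are counts of reads for each gene, deposited by the authors without normalization in 2 tables (lung with monocytes, and CD4 T cells). Tools named per the submitters' processing notes are STAR 2.7.9, featureCounts and Subread 2.0.3, with build GRCm39. Annotation, strand setting and the handling of shared reads are not given in the sources used here. Genes with copies or antisense partners are therefore uncertain. Poly(A) RNA was sequenced after NEBNext library preparation, per the labels' protocols. Libraries were grouped by the treatment and tissue labels. Counts were fitted with edgeR 4.0.16 (R 4.3.3) after filterByExpr and trimmed-mean scaling (TMM), by quasi-likelihood tests with Benjamini-Hochberg adjustment over all tested genes. Differences between materials used an interaction contrast. The reported errors are standard errors of log2 changes, or standard deviations over libraries. DESeq2 1.42.0 and limma-voom 3.58.1 were alternatives. The code of the fits was checked on simulated counts with the same set spread for every gene and no change of cell mixture. That check does not show how well the fits suit these libraries. No pair of libraries agreed within sampling noise (chi-square per degree of freedom at least 3.52).

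The members and lists were chosen with earlier results of these data known. Of 55416 identifiers 52083 matched a symbol. Ero1a was looked up by an older symbol, and of 2 identifiers of Aldoa the one with more counts was used. Every member called in a comparison is named, and up to 4 called genes per direction of other lists, by smallest p, beside Tyrp1, Dct, Pmel, Mlana and Mki67 in lung. Exon lengths and shared words come from GENCODE M21 (GRCm38), so no gene positions on GRCm39 are given. Slc2a3 and Ndrg1 have no promoter window in the table.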

Additional observations from a re-analysis of the deposited data

Results flagged for a closer look

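The change with propranolol differed between the libraries labelled monocytes and whole lung for 32 members, by an interaction contrast in edgeR. For 4 of them the change was called in both materials and in opposite directions. These are Slc16a1 (difference 1.12 log2), Pdk1 (1.55), Ankrd37 (1.48) and Kdm3a (0.76). The others ranged from −0.86 to 3.19. Of all 17471 genes tested in both materials and in the contrast, 16.7% were called in opposite directions with the difference called too, and 7.41% were lower in lung and higher in the libraries labelled monocytes as these 4 were. With the close pairs of libraries summed (2 libraries a group) the 4 calls in the libraries labelled monocytes were lost, at log2 changes of the same sign, 0.41 for Slc16a1, 0.46 for Pdk1, 0.36 for Ankrd37 and 0.12 for Kdm3a.

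Between CD4 T cells and whole lung the change differed for 29 members. In 16 of these the change was called in both materials, lower in lung and higher in CD4 T cells, which held for 15.2% of all 14926 genes tested in both and in the contrast. The differences were 3.11 log2 for Slc2a1, 2.698 for Hk2, 1.76 for Gpi1, 2.05 for Pfkp, 2.34 for Aldoa, 2.67 for Gapdh, 2.68 for Pgam1, 2.45 for Pkm and 2.81 for Ldha. They were 1.11 for Slc16a1, 5.70 for Slc16a3, 3.80 for Egln3, 3.86 for Ndrg1, 1.88 for P4ha1, 3.08 for Hif1a and 1.18 for Kdm3a. Both sets of differences share the lung libraries.

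In plain CPM, 9 of 204 combinations of a member and a group of libraries held a single library apart from the rest. That is near the 10.2 that chance alone marks at about 1 in 20. The 204 are not independent, since members can move together in a library. Untreated lung library 2 was highest for Egln3 (42.8, others 5.25 to 13.4), Ankrd37 (11.5, others 2.93 to 4.68) and Ndrg1 (176, others 51.9 to 86.1). Treated lung library 5 was highest for Egln3 (3.57, others 2.53 to 2.74). Untreated CD4 T cell library 1 was lowest for Hk2 (13.0, others 15.7 to 16.1) and Slc16a3 (8.68, others 13.9 to 14.3) and highest for Egln1 (96.3, others 85.5 to 86.1). Untreated CD4 T cell library 2 was lowest for Ankrd37 (2.82, others 4.55 to 4.88). In the libraries labelled monocytes, untreated library 2 was lowest for Pfkm (24.5, others 26.8 to 27.1).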

How the results depend on the processing

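For members called in a comparison, 2654 values were recomputed under alternatives (size factors of DESeq2, no filter, a mean of at least 5 CPM, the DESeq2 and limma-voom tests, a replicate block, leaving out each library, melanocyte or resident cell scaling, and, chosen after seeing the data, library totals and summed close libraries). Of these, 2567 kept direction and call, 81 kept direction but lost the call and 6 changed direction. Most of the values come from fits that left out 1 library and so share nearly all data with the main fit. With the melanocyte covariate 22 of 33 calls in lung were kept. With close libraries summed 3 of 9 were kept in the libraries labelled monocytes. The count of members called in the libraries labelled monocytes, 9 in the report, was 5 with a replicate block (2 higher, 3 lower), 14 on library totals (10 higher, 4 lower) and 3 with close libraries summed (0 higher, 3 lower), when 19.4%, 33.3% and 6.67% of all genes were called. The replicate block left 33 calls in lung and 26 in CD4 T cells. Numbers did not pair the libraries (same-number correlations of −0.11 to 0.61 in lung and −0.62 to −0.40 in the libraries labelled monocytes), so the block shows only a shared number. Changes of direction were Eno2 in lung with the melanocyte covariate (0.25), Pfkfb3 in lung on resident cell markers (−0.18), Gpi1 in CD4 T cells on library totals (−0.088), and on resident cell markers the differences from lung of Pfkfb3 (0.48) and P4ha2 (0.16) in the libraries labelled monocytes and of Pdk1 (0.24) in CD4 T cells. The CD4 T cell median of the members was −0.12 on library totals. The cause of these was not tested. Leaving out 1 library gave 32 to 33 calls in lung, 7 to 10 in the libraries labelled monocytes, 25 to 26 in CD4 T cells, 30 to 32 and 29 for the differences of these materials from lung, and 23 to 28 and 30 to 32 for their untreated levels against lung.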
